A study of Mus musculus with 6 samples.

Results

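Solute carriers are membrane proteins that move small molecules across the cell surface or the membranes of organelles, and they are grouped into numbered families by sequence and, loosely, by substrate. Some work alone, others need a partner: light chains of family 7, for instance, reach the cell surface only when bound to a heavy chain of family 3. In the intestine, carriers supply the epithelium with amino acids, sugars, ions, metals and vitamins, and many sit on either the brush border or the blood-facing membrane of mature absorptive cells.

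The genes described here are the expressed solute carriers other than the mitochondrial family 25. They were taken by symbol (Slc, a family number, the letter a and a number), without family 25 and without Slc2a1, Slc16a1, Slc16a3 and Slc7a11, when their counts summed over all libraries reached 60. The summed count chose the members, and the difference between the groups was not part of the rule. Of 302 candidate genes, among 52249 genes in the deposited table, 125 passed and 177 did not, 113 of these with a count of 0. The symbol rule also takes 5 genes that are not carriers, among them Slc9a3r1 and Slc9a3r2, scaffold proteins of the cell cortex; the remaining 120 carriers fall in 41 families. For family 35, whose other subfamilies carry other letters, the rule takes only the A subfamily. Just below the limit lay Slc1a2 with 46 counts and Slc28a3 with 52, and just above it Slc17a9 and Slc18a1 with 62 each.

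The libraries are 3′ mRNA sequencing of mouse intestinal organoids, a culture of self-organizing gut epithelium. All 6 come from organoids with a knockout of Apc, a brake on WNT signalling. In 3 of them, called control here, this is the only change that the labels name, and the other 3, called OE here, also overexpressed IGF2BP3, an RNA-binding protein. Strain, age, gut segment, the construct that drives IGF2BP3 and whether libraries came from separate cultures are not given in the sources used here, so p-values measure the spread between these libraries, which may be technical.

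Library totals ran from 2180116 to 2519917 counts. Igf2bp3 had at most 1 count in any library, so its counts gave no check of the OE label. Library names put the control libraries in one series and the OE libraries in another, so library series and group cannot be told apart in any value below. Markers of mature absorptive cells were near 0 in every library: 7 of 10 enterocyte markers, among them Fabp1 and Sis, had no counts, and the 10 summed to at most 1.69 CPM (counts scaled to library size). General epithelial markers were present (1 of 8, Cdx1, at 0) and summed to 3948 to 4172 CPM in control and 5325 to 6025 in OE libraries, with 4 of 7 tested higher. Higher were Krt18 (mean 1179 against 2229 CPM), Krt8, Krt19 and Vil1, while Epcam, Cdh1 and Cdx2 did not pass. Goblet markers summed to 590 to 614 CPM in control and 1273 to 1488 in OE libraries, and 3 of 5 tested were higher. These were Spink4 (mean 480 against 1155 CPM), Tff3 (73 against 174) and Fcgbp, while Muc2 and Clca1 did not pass. Stem-cell markers summed to 1079 to 1131 against 1553 to 1902 CPM, with 3 of 6 tested higher. The higher ones were Prom1 (mean 716 against 1129 CPM), Sox9 (343 against 514) and Ascl2, while Lgr5, Olfm4 and Axin2 did not pass. Over all tested genes, 16.5% were called higher. Of 6 Paneth markers, 4 (Lyz1, Defa17, Defa24 and Ang4) were at 0 and the 1 tested, Mmp7, was higher, with sums of 31.3 to 34.6 against 57.9 to 86.5 CPM; of 4 tuft markers none was at 0 and 1 of 2 tested, Avil, was higher, with sums of 142 to 156 against 182 to 219 CPM. None of the enteroendocrine, fibroblast or colonocyte markers reached the tested level (sums of at most 0.469, 2.81 and 5.07 CPM), and 1 of 5 immune markers did, without passing (13.6 to 20.3 CPM over both groups). The part of these cell types in the results below was not tested, and in whole cultures fewer cells of a type and less RNA per cell cannot be told apart.

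Most of a short list of absorptive-cell carriers, picked by hand and named in this paragraph, were outside the set. The list is not complete: Slc39a4, a zinc importer of the brush border, is a member with 9932 counts. Slc26a3, a chloride and bicarbonate exchanger, Slc15a1, the peptide carrier, and Slc34a2, a phosphate carrier, had 0 counts in all 6 libraries, which allows up to 3 counts in each. Slc5a1, the sodium and glucose cotransporter, had 1 count in all, the fructose carrier Slc2a5 had 1 and the glucose carrier Slc2a2 had 2. The neutral amino acid carrier Slc6a19 reached 18. Listed carriers that are members of the set were Slc40a1, the iron exporter, with 880 counts, Slc10a2, the ileal bile acid carrier, with 219, and Slc46a1, the folate carrier, with 148.

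The promoter sequences of these genes hold one feature that was searched because it is the binding motif of MYC and of related factors, including the lysosomal regulator TFEB: the palindromic E-box CACGTG. RefSeq windows (GRCm38.p6, 250 bases before to 50 after a start, of which the bases before the start were searched) were matched for 88 of the 125 members. The E-box stood in 15 of these 88 genes (17%), against 10.6% of the tested genes with a window and 6.86% of all genes with one. It stood in 5 of 18 members that were higher in OE libraries, in 1 of 4 that were lower and in 9 of 65 that did not pass. A gene can have several windows, and a match in any of them was counted. By window, these were 5 of 36 (13.9%), 1 of 6 and 9 of 80 (11.25%). The E-box stood in 15 of 123 member windows (12.2%) and in 8.73% of the windows of tested genes. The sequences below are those of the 6 changed members with a match, each read 5′ to 3′ on the strand of its gene with the motif in capitals and up to 30 bases on either side.
Slc12a9, chr5:137333653-137333718, minus strand: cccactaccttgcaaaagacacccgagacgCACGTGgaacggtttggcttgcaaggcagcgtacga
Slc27a1, chr8:71570362-71570427, plus strand: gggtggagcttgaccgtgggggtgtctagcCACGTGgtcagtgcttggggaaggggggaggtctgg
Slc29a1, chr17:45595286-45595351, minus strand: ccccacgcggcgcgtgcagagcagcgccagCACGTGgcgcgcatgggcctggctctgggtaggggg
Slc37a3, chr6:39377708-39377750, minus strand: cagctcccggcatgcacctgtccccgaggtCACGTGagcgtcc
Slc49a4, chr16:35769542-35769607, minus strand: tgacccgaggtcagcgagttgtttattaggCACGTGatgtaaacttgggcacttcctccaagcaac
Slc20a1, chr2:129198568-129198772, plus strand, with 2 matches: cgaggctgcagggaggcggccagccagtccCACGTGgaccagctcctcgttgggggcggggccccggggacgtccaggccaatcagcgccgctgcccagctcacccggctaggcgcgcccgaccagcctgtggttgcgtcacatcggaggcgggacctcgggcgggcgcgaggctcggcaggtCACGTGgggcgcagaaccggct

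The first base of the E-box lay 13 bases before the start in Slc37a3, 75 in Slc29a1, 106 in Slc12a9, 202 in Slc27a1 and 207 in Slc49a4, and in Slc20a1 the matches lay 175 and 22 bases before it. Slc20a1, whose window holds both matches, was lower in OE libraries, while the other 5 were higher. A pair of stress-response motifs was searched on both strands in the same windows. The core of the antioxidant response element, TGACNNNGC, stood in 18 of 88 member genes (20.5%), against 14.3% of tested genes and 11.5% of all genes. The amino acid response motif TGATGNAA stood in 5 of 88 (5.68%), 2 of them, Slc7a7 and Slc49a4, among the 18 higher members, against 2.30% of tested genes and 3.91% of all genes. A match is a description of these letters, and binding was not measured.

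Across the set, 28 members rose and 6 fell in OE libraries at an adjusted p below 0.05, of 122 that passed the expression filter; Slc36a4, Slc17a9 and Slc18a1 did not pass it. The 34 together are 27.9% of the tested members, close to the 29.2% of all 10687 tested genes that were called. The direction was less even: 23% of members were called higher against 16.5% of all genes, and 4.92% lower against 12.7%. The median log2 fold change was 0.11 over the members and 0.04 over all tested genes, and 69 of the 122 lay above 0. The members ran from -1.19 (Slc5a3) to 1.29 (Slc52a2), and 5 were at least 2-fold higher and 2 at least 2-fold lower, so 7 of 122 against 5.38% of all genes. All 3 OE libraries lay above all 3 controls for 35 tested members and below them for 21, where 25.3% and 20.5% of all genes did so. All 34 called members were among these. With library scaling that leaves out mitochondrial genes, the counts were 26 and 8, and with DESeq2 size factors 27 and 8. The share of member calls that were higher moved from 82.4% to 76.5% and 77.1%. Over all tested genes, that share moved from 56.6% to 48.4% and 49.9%.

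The fold change varied with the base composition of the transcript. The median GC content of the longest annotated transcript was 55.1% in the 28 higher members, 48.4% in the 6 lower and 50.5% in the 88 that did not pass. Spearman's rho between log2 fold change and GC content was 0.35 across the 122 members and 0.37 across the 10679 tested genes with a known GC content; these points share the same 6 libraries, and the values are given as a description. With a per-library offset for GC content, 22 members were higher and 8 lower (18% and 6.56%, against 12.7% and 10.3% of all genes), their median fell to 0.04 and rho to 0.04. The median of all tested genes with the offset was 0.03. Of the 34 members called without the offset, 26 were called with it as well, and 4 more, among them Slc26a11, Slc4a3 and Slc10a2, were called only with it. Whether GC content plays a part in the single differences was not tested beyond this offset.

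**Figure D1:**
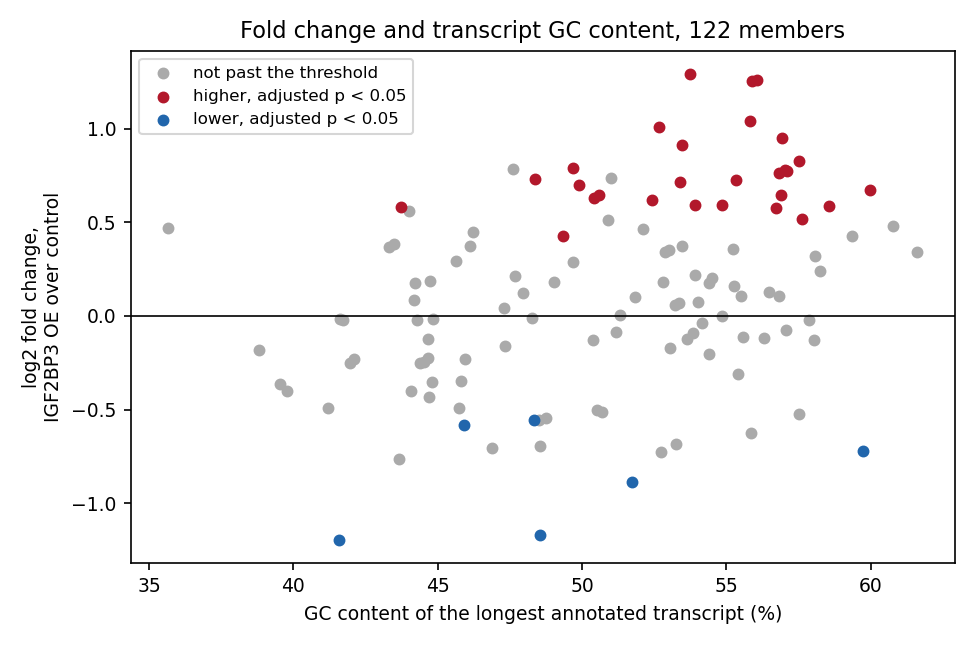
Log2 fold change of OE over control libraries (y axis) against the GC content of the longest annotated transcript in percent (x axis) for the 122 tested members, 1 point per gene. Red points are the 28 members that were higher, blue the 6 lower and grey the 88 that did not pass an adjusted p of 0.05; the red points lie mostly on the GC-rich side, with a median of 55.1%.

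By role class, the calls are given as a description, to be read against the 16.5% of all tested genes called higher and the 12.7% called lower; differences between classes were not tested. Of the 22 tested carriers of amino acids and peptides, 7 were higher and 1 lower, with a median log2 fold change of 0.24, which was 0.13 without OE replicate 1. With the GC offset and the replicate block together, 3 of them were higher. Nucleotide-sugar, nucleoside, heme and vitamin carriers gave 6 higher and 0 lower of 18, with a median of 0.11. Trace-metal and magnesium carriers gave 6 higher and 2 lower of 22 (median 0.02), sugar and monocarboxylate carriers 3 and 1 of 16 (median 0.10), inorganic ion carriers 2 and 2 of 21 (median 0.07), and organic ion and lipid carriers 3 and 0 of 18 (median -0.02). Of the 5 genes that are not carriers, 1 was higher. The class medians near 0 were not stable in sign: that of the inorganic ion carriers was -0.04 without control replicate 2, that of the organic ion carriers 0.13 without OE replicate 1, and that of the trace-metal carriers -0.12 without OE replicate 2. Carriers of lysosomes and other organelles were called at 27.8% (10 of 36) and the remaining carriers at 28.4% (23 of 81). By depth, 40% of the 70 members with at least 300 summed counts were called, against 37% of all genes at that depth, and 11.5% of the 52 tested members below it, against 17.2%.

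**Figure D2:**
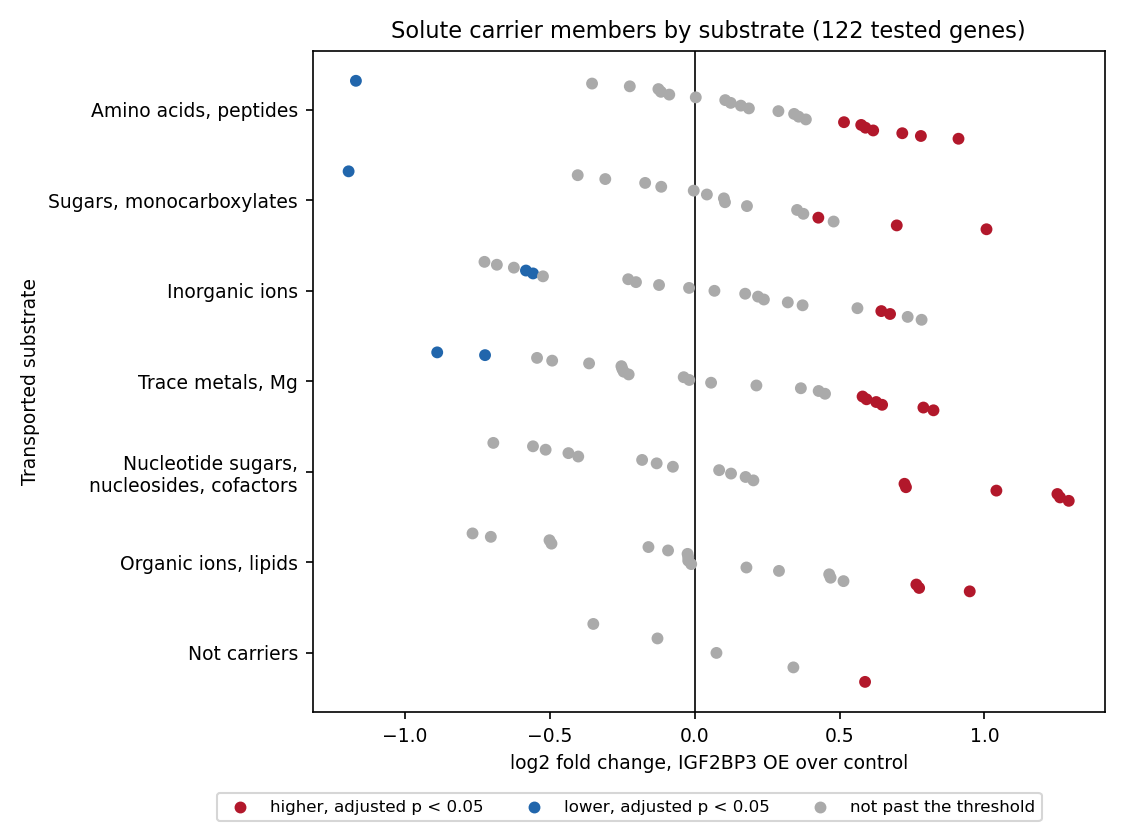
Log2 fold change of OE over control libraries (x axis) for the 122 tested members, in rows by transported substrate (y axis) and ordered by value within a row, 1 point per gene. Red marks the 28 higher members, blue the 6 lower and grey those not past an adjusted p of 0.05; the amino acid row holds 7 red points, and the cofactor row 6 red and no blue.

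The called carriers of amino acids included both directions. Slc3a2 encodes the CD98 heavy chain that brings family 7 light chains to the surface, and is annotated on chromosome 19 from 8706882 to 8723369 (minus strand, GRCm38). Its TMM-scaled CPM, the unit used for every level below, were 583, 531 and 502 in the control libraries and 965, 880 and 809 in the OE libraries. All OE values lay above all control values, with means of 538 ± 40.7 and 885 ± 78.2 (SD, n = 3) and a log2 fold change of 0.72 (SE 0.10, adjusted p = 0.000516). Slc7a5, the LAT1 light chain that pairs with it for large neutral amino acids, did not pass: it was at 47.5, 44.6 and 41.9 in control and at 23.5, 52.3 and 47.8 in OE libraries (adjusted p = 0.743). Its OE replicate 1 was below every control value and the other OE libraries were above every one of them. Slc7a7, a light chain that exchanges cationic for neutral amino acids at the blood-facing side, was higher by 0.62 (adjusted p = 0.0124). It lost its call without control replicate 3 (adjusted p = 0.0649), with DESeq2 (0.0812) and with the GC offset and the replicate block together. Slc7a4 was higher by 0.59 (adjusted p = 0.0343), but lost its call in 7 of 16 alternative settings: without control replicate 1, control replicate 3 or OE replicate 1 (up to 0.154), and with the GC offset (0.148) and DESeq2 (0.132) among others. The other heavy chain of the family, Slc3a1, had 1 count over all libraries, and its light chain Slc7a9 had 2.

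The called glutamine carriers did not share one direction. Slc38a1, a sodium-coupled importer of glutamine on chromosome 15 (96571418 to 96642913, minus strand), stood at 75.6, 80.2 and 79.7 in control and at 34, 31.5 and 39.3 in OE libraries. Every OE library was below every control library, 2.25-fold on the fitted scale (log2 fold change -1.17, SE 0.13, adjusted p = 0.000144), and the call was kept in all 16 alternatives. Slc38a2, its close relative and one of the more abundant members by count, was at 448, 438 and 428 in control and 358, 365 and 402 in OE libraries. Those ranges did not overlap either, but the difference of -0.22 did not pass (adjusted p = 0.1005). Slc1a5, a neutral amino acid exchanger that takes up glutamine, was higher, at 105, 108 and 102 in control and 163, 161 and 145 in OE libraries (log2 fold change 0.57, SE 0.11, adjusted p = 0.00221). With the GC offset its difference was 0.35, and with the offset and the replicate block together it did not pass (adjusted p = 0.0527). Slc38a10 was also higher, by 0.52 (adjusted p = 0.00521), and with the GC offset the difference was 0.28 (adjusted p = 0.116).

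Glycine and branched-chain amino acid carriers were among the higher members. Slc6a9, the glycine carrier GlyT1, was at 100, 99.9 and 85.2 in control and at 194, 160 and 135 in OE libraries. The OE libraries lay above the controls but spread more widely (95.1 ± 8.51 against 163 ± 29.7, SD, n = 3; log2 fold change 0.78, SE 0.14, adjusted p = 0.00179). Its exons overlap those of 3 genes on the opposite strand. Slc43a2, a facilitative carrier of branched-chain amino acids, rose from 21.2 ± 3.77 to 39.8 ± 4.16 (SD, n = 3; log2 fold change 0.91, SE 0.18, adjusted p = 0.00287). Slc6a6, the taurine carrier and the third member by counts, was at 554, 581 and 603 in control and at 354, 591 and 690 in OE libraries. The OE libraries lay on both sides of the controls, and the difference did not pass (adjusted p = 0.752).

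Among amino acid stress-response genes given for comparison, 3 of 8 tested entries were higher and none lower, where 16.5% of all genes were called higher. The higher ones were Chac1 (log2 fold change 1.36), a glutathione-degrading enzyme, Asns (0.68), asparagine synthetase, and Psat1 (0.62), an enzyme of serine synthesis. The other 5 did not pass: Trib3 (0.34), Sesn2 (0.13), Atf4 (-0.09), Ddit3 (-0.32) and Eif2ak4 (-0.47). Every OE library was above every control for Trib3 (adjusted p = 0.0563) and below every control for Ddit3 (adjusted p = 0.055).

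**Figure D3:**
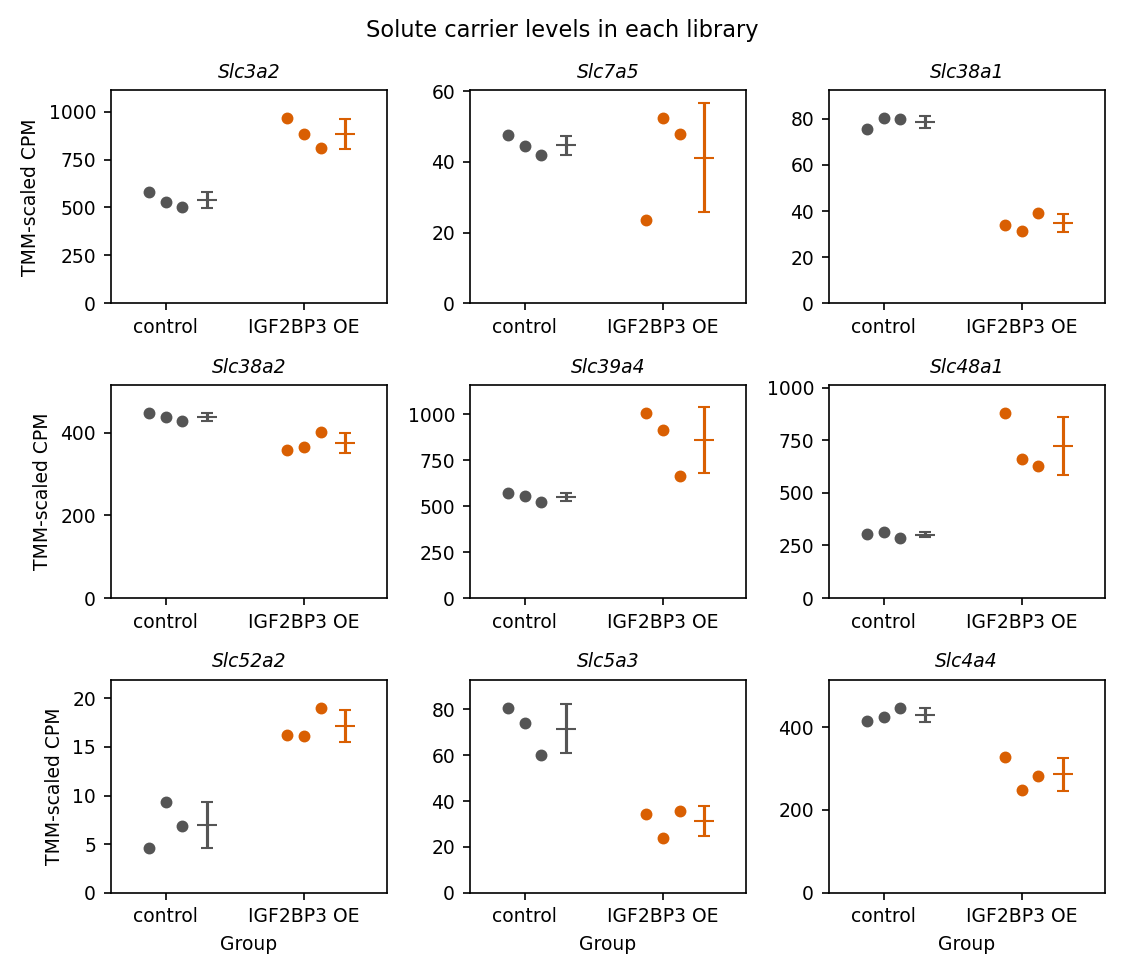
TMM-scaled CPM (y axis, from 0, a separate scale in each panel) of 9 members in each library (x axis, control and OE, 3 points each), with the mean and SD beside the points. Slc38a1, Slc5a3 and Slc4a4 were lower in every OE library, Slc7a5 overlapped between groups, with OE replicate 1 at 23.5, and Slc38a2 did not overlap but did not pass the test.

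Heme, riboflavin and nucleoside carriers included the largest differences. Slc48a1 moves heme out of endosomes and lysosomes, and is annotated on chromosome 15 from 97778520 to 97792692 (plus strand). It was at 303, 314 and 287 in control and at 879, 660 and 628 in OE libraries. All OE libraries were above all controls, 2.40-fold on the fitted scale (log2 fold change 1.26, SE 0.13, adjusted p = 7.38e-05), and it made up 4.27% of all member counts in control and 8.63% in OE libraries. Its exons overlap those of 1 gene on the opposite strand. Both riboflavin carriers in the set were higher. Slc52a2 was at 4.61, 9.38 and 6.91 in control and at 16.2, 16.1 and 19 in OE libraries, a separation of the groups at low counts (log2 fold change 1.29, SE 0.27, adjusted p = 0.00388). Slc52a3 was at 21.2, 25.8 and 17 against 47.8, 39.3 and 44.8 (log2 fold change 1.04, SE 0.18, adjusted p = 0.00137), again without overlap. 

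Slc35a4, of the nucleotide-sugar carrier family, was at 20.3, 16 and 15.2 in control and at 48.2, 47.6 and 26.6 in OE libraries. Its OE replicate 3 lay nearer to the controls than the other OE libraries did, and the gene was higher by 1.25 (SE 0.24, adjusted p = 0.00244). Slc29a1, the equilibrative nucleoside carrier ENT1, was higher by 0.72 (adjusted p = 0.0058), and Slc49a4, a lysosomal carrier, by 0.73 (adjusted p = 0.00591). The calls of these 6 genes were kept in all 16 alternatives. None of the other 12 carriers in the class passed; they ran from -0.69 to 0.20, with 0.124 as their lowest adjusted p. One of these, the thiamine carrier Slc19a2, had its OE replicate 1 below 0.5 times each other library of that group. Outside the rule, the other subfamilies of family 35 gave 1 higher and 0 lower of 15 tested. Beside this, 16.5% of all tested genes were called higher and 12.7% lower. The 1 called was Slc35b2, a Golgi carrier of the sulfate donor, which rose by 0.66 (adjusted p = 0.00837).

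Of the 22 trace-metal and magnesium carriers, 6 were higher, 2 lower and 14 did not pass, and no lower call was left without control replicate 2 or with DESeq2. Slc39a4, the ZIP4 zinc importer of the intestinal brush border, on chromosome 15 from 76612383 to 76617384 (minus strand), was at 569, 556 and 524 in control and at 1007, 913 and 662 in OE libraries. The groups did not overlap, although the OE libraries spread widely (550 ± 23.4 against 861 ± 178, SD, n = 3; log2 fold change 0.65, SE 0.14, adjusted p = 0.00401). Slc39a7, the ZIP7 carrier that releases zinc from the endoplasmic reticulum, was at 54.2, 53.7 and 48.4 against 111, 70.6 and 94.9 (log2 fold change 0.82, SE 0.16, adjusted p = 0.00297), and its exons overlap those of 1 gene on the same strand. Slc39a11 was higher by 0.59 (adjusted p = 0.0103), a call lost with the GC offset (0.0579) and without control replicate 2, control replicate 3 or OE replicate 2 (up to 0.0649). Against these stood Slc39a14, an importer of zinc, iron and manganese, at 13.4, 19.7 and 13.8 in control and 8.91, 7.08 and 9.30 in OE libraries (log2 fold change -0.89, SE 0.25, adjusted p = 0.0203), and Slc39a13, lower by a log2 fold change of -0.72 (adjusted p = 0.032). Slc39a14 lost its call without control replicate 2 or OE replicate 2 (adjusted p up to 0.111) and with DESeq2 (0.0737). Slc39a13 lost it without any 1 of the controls or OE replicate 3 (up to 0.125) and with DESeq2 (0.102). With the GC offset both passed. In all, family 39 gave 3 higher, 2 lower and 6 not passed of 11, beside 16.5% of all genes called higher and 12.7% lower. 

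No member of family 30, whose carriers move zinc out of the cytosol, was called among 6, beside 29.2% of all tested genes. Slc30a1, the plasma membrane zinc exporter, had a log2 fold change of 0.45 (adjusted p = 0.121). Both members of the copper family 31 were higher: Slc31a1, the copper importer CTR1, from 41.9, 41.8 and 47.9 in control to 67.3, 66.1 and 63.4 in OE libraries (log2 fold change 0.58, SE 0.13, adjusted p = 0.00566), and Slc31a2 by 0.79 (adjusted p = 0.0235). The call of Slc31a2 was lost without control replicate 1 or 2 or OE replicate 2 or 3 (up to 0.104) and with DESeq2 (0.114). The iron importer Slc11a2, known as DMT1, was at 27.2, 23 and 26.3 against 38.1, 44.8 and 35.1, with no overlap and a log2 fold change of 0.63 (SE 0.17, adjusted p = 0.0138), a call lost without control replicate 2 or OE replicate 2 (up to 0.0765) and with DESeq2 (0.0737). The iron exporter Slc40a1 did not pass, with a log2 fold change of -0.25 (adjusted p = 0.179). Heph, the ferroxidase that works beside this exporter, was higher by 0.92.

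**Figure D4:**
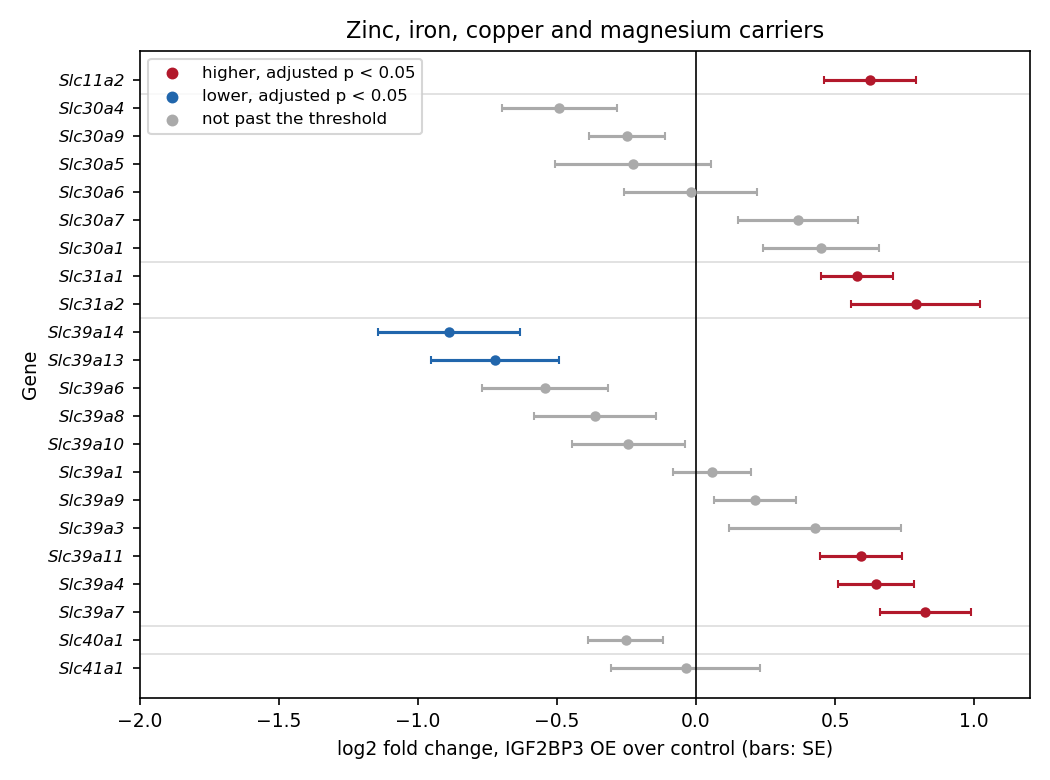
Log2 fold change of OE over control libraries (x axis) with its standard error (bars) for the 22 carriers of zinc, iron, copper and magnesium, in rows by gene (y axis), with lines between families. Red marks 6 higher and blue 2 lower members at an adjusted p below 0.05; family 39 holds members of both colours, and all 6 members of family 30 are grey.

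Of the 21 inorganic ion carriers, 4 were called, beside 29.2% of all tested genes. Slc4a4, the sodium bicarbonate cotransporter of the blood-facing membrane, on chromosome 5 from 88886818 to 89239653 (plus strand), was at 414, 425 and 447 in control and at 329, 249 and 282 in OE libraries. Every OE library was below every control (429 ± 16.7 against 286 ± 40, SD, n = 3; log2 fold change -0.58, SE 0.11, adjusted p = 0.00289), and the call was kept in all 16 alternatives. The phosphate importer Slc20a1 was at 111, 103 and 104 against 74.1, 85.7 and 55.8 (log2 fold change -0.56, SE 0.15, adjusted p = 0.0146). It separated the groups but lost its call without control replicate 1 and without control replicate 3 (highest adjusted p 0.0677). Slc12a9, of the cation-chloride family, was higher by 0.67 (adjusted p = 0.017), and Slc4a8, a sodium-driven chloride bicarbonate exchanger, by 0.64 (adjusted p = 0.0334). The call of Slc12a9 was lost with the GC offset (adjusted p = 0.119), with DESeq2 (0.0889) and without control replicate 2 or 3 (up to 0.079). That of Slc4a8 was lost in 9 of 16 alternatives, among them the GC offset (0.0578), DESeq2 (0.185) and the fits without any 1 of the controls or OE replicate 1 or 2 (up to 0.123). Slc12a2, the chloride-importing NKCC1 and the class member with most counts, was at 384, 361 and 355 against 453, 372 and 416; the ranges overlapped and it did not pass (log2 fold change 0.17, adjusted p = 0.231). Its log2 fold change was 0.35 with the GC offset (adjusted p = 0.0563) and 0.05 without OE replicate 1, and it passed with the offset and the replicate block together (0.34, adjusted p = 0.0488). 

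No member of the sodium-proton exchanger family 9 was called among its 5 carriers, beside 29.2% of all tested genes. Slc9a3, the brush border exchanger, had 0 counts. The scaffold Slc9a3r1, which anchors that exchanger and other apical proteins to the cytoskeleton, was higher by 0.59 (adjusted p = 0.00472), and with the GC offset the adjusted p was 0.077. Among genes that assist carriers at the membrane, 3 of 3 tested were higher (7 are listed, and 16.5% of all genes were called higher), namely Bsg and Heph, described beside their carriers, and Ezr (0.50), which ties this scaffold to actin; Cltrn and Pdzk1 were at 0. The sodium pump, whose gradient drives many of these carriers, had 4 of 4 tested genes higher, where 16.5% of all genes were called higher, with log2 fold changes of 0.73 for Fxyd3 and 0.51 for Atp1b1. Of 6 kinase and ligase genes that act on ion cotransporters, 1 was called, Oxsr1, at -0.92, where 12.7% of all genes were called lower.

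Sugar and monocarboxylate carriers held the lowest fold change of the set. Slc5a3, the sodium-coupled importer of myo-inositol, on chromosome 16 from 92058322 to 92087473 (plus strand), was at 80.7, 74.1 and 59.9 in control and at 34.4, 24 and 35.5 in OE libraries. No value overlapped (71.6 ± 10.6 against 31.3 ± 6.37, SD, n = 3; log2 fold change -1.19, SE 0.17, adjusted p = 0.000532); its exons overlap those of 2 genes on the same strand, so its reads may not all be its own. Slc5a9, a sodium-coupled carrier of mannose and glucose in the same family as Slc5a3, was at 48.4, 48.3 and 40.5 against 81.8, 66.5 and 74.4 (log2 fold change 0.70, SE 0.14, adjusted p = 0.00301). The calls of Slc5a3 and Slc5a9 were kept in all 16 alternatives, whereas that of Slc37a3 (log2 fold change 0.43, adjusted p = 0.0313) was lost in 10, among them DESeq2 (adjusted p = 0.170) and all fits that leave out 1 library except the fit without OE replicate 3 (up to 0.126). Of the genes that the rule leaves out, the lactate carrier Slc16a1 was lower, by a log2 fold change of -0.91 (adjusted p = 0.00273), and Slc2a1 (0.13), Slc16a3 (0.27) and Slc7a11 (-0.32) did not pass. Bsg, the chaperone that brings Slc16a1 to the surface, was higher by 0.76.

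Organic ion and lipid carriers gave 3 calls, all higher. Slc22a18, an organic cation family member, was at 27.2, 26.3 and 32.7 in control and at 44.6, 53.1 and 49.9 in OE libraries, with no overlap (log2 fold change 0.77, SE 0.16, adjusted p = 0.00319) and a call kept in all 16 alternatives. Both fatty acid transport proteins in the set were higher: Slc27a1 by 0.95 (adjusted p = 0.0154) and Slc27a4 by 0.77 (adjusted p = 0.0158). Both calls were lost with the GC offset (adjusted p = 0.0563 and 0.0737), with DESeq2 (0.0776 and 0.0605) and without control replicate 3, and that of Slc27a4 also without control replicate 2 (up to 0.0822 and 0.0824 over these left-out libraries). Slc44a2, a choline carrier-like protein and the member of the class with most counts, was at 122, 108 and 110 against 121, 111 and 105, with overlapping ranges and a log2 fold change of -0.01 (adjusted p = 0.948). None of the 4 tested members of family 44 and none of the 4 of family 10 passed. The Slco genes, a separate family of organic anion carriers, gave 0 calls among 4 tested. Beside these 3 families, 29.2% of all tested genes were called in either direction.

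The members summed to a larger share of the counts in OE libraries, and 3 genes held most of the difference. All members made up 0.689% ± 0.00576 of all counts in control and 0.846% ± 0.0133 in OE libraries (SD, n = 3), and the ranges did not overlap. The difference was 0.157 percentage points, and 0.044 for the members other than Slc48a1, Slc3a2 and Slc39a4 (0.553% against 0.597%), a grouping chosen after the values were seen. The exact two-sided permutation p for the first difference was 0.1, the smallest that 3 against 3 libraries can give. Without mitochondrial genes in the total, the shares were 0.780% and 0.909%. The 6 members with most counts, Slc3a2, Slc39a4, Slc6a6, Slc48a1, Slc38a2 and Slc12a2, held 42.8% of the member counts.

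Spread between libraries was wider in the OE group. Over the 70 members with at least 300 summed counts, the median coefficient of variation was 8.14% in control and 14% in OE libraries. OE replicate 1 lay below 0.5 times both other libraries of its group in 5 members: Slc7a5, Slc20a2, Slc19a2, Slc23a2 and Slc33a1. Without that library, 26 members were higher and 11 lower, the added lower calls being Slc10a7, Slc30a9, Slc38a2, Slc4a11 and Slc7a6os. The 88 members that did not pass with all 6 libraries ran from -0.77 to 0.78.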

How the data were processed

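Total RNA of 6 organoid libraries was sequenced with a QuantSeq 3′ forward kit, per the labels' protocols, so that counts do not scale with transcript length. The submitters' processing notes name STAR, HTSeq and the mm10/GRCm38 build. The authors deposited estimated counts, not normalized, for each gene. Fractions occurred (in 3 members), and values were rounded before testing, although the plan had assumed integer counts. Groups and replicate numbers came from the sample titles, and columns were matched by library name. Gene positions, overlaps and GC content came from GENCODE M21, by gene identifier.

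OE and control libraries were compared over all 6 libraries with edgeR 4.0.16 (filterByExpr, TMM, quasi-likelihood test, R 4.3.3, limma 3.58.1), with Benjamini-Hochberg adjustment over the 10687 genes kept and a threshold of 0.05. CPM are TMM-scaled, and the standard error is derived from the quasi-likelihood F statistic. On simulated counts for this comparison with 200 of 10521 genes changed by 1 log2 unit, 73% were recovered and 7.01% of calls were unchanged genes. In the data, 29.2% of all tested genes were called, and 5.38% were called with at least a 2-fold difference. The rates therefore cover neither smaller differences nor so large a share of changed genes. The simulation also gave both groups the same spread for each gene, so these rates do not cover the unequal spread of the data. There, the common biological coefficient of variation was 3.13% in control and 17.2% in OE libraries. A limit of 3 counts equals 1.18 to 1.41 TMM-scaled CPM. Intervals and limits cover counting error only.

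In each role class, the text names up to 4 called members with the smallest p, the member with most counts, partners of heteromeric or exchange pairs and the genes at the limit of 60; any further member was picked with its values in view. Some members are counted but not reported by name here. Members, lists and role classes were chosen with earlier results of these data known. The 16 alternatives are other scalings (DESeq2 size factors, library totals, TMM without mitochondrial genes), filters, DESeq2 1.42.0, limma-voom, the replicate block, a GC offset (loess, span 0.5), both together, and each library left out.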

Additional observations from a re-analysis of the deposited data

How the results depend on the processing

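Of the 34 called members, 18 were called in every alternative that gave a value, 26 with the GC offset, 23 with the DESeq2 test, 34 with the replicate block and 21 in every fit without 1 library; none changed sign. At an adjusted p below 0.01, 18 members were higher and 3 lower. With no low-count filter, 10 were lower. Leaving out 1 library gave 20 to 30 higher, 4 to 11 lower (11 without OE replicate 1), a median log2 fold change of 0.0472 to 0.14 (0.0472 without OE replicate 2) and a difference in the members' share of counts of 0.150 to 0.161 percentage points. The median, 0.11 with all libraries, was 0.0497 with TMM without mitochondrial genes, 0.0395 with the GC offset, 0.0522 with the GC offset and the replicate block together, and 0.18 in members with at least 300 counts. Beside these, the median of all tested genes was 0.04 with all libraries and 0.001 without OE replicate 2. It was -0.016 with TMM without mitochondrial genes, 0.030 with the GC offset and 0.025 with the offset and the block. With the replicate block alone, 28 members were higher and 7 lower. The deviations of same-numbered libraries from their group means correlated at 0.10, 0.02 and 0.07, and those of differently numbered libraries at -0.11 to 0.04. For each OE library the same-numbered control gave the highest value. Whether the numbers pair the libraries cannot be told from these values, and they were not taken to do so. Of 527 values of 31 named genes under the alternatives and the 0.01 threshold, 476 kept direction and side of the threshold, 49 lost the call (7 of them at the 0.01 threshold), 2 gained it and none reversed. Library totals moved the median of all genes from 0.04 to 0.09, and DESeq2 size factors to -0.003. Of the tested members below 300 summed counts, 11.5% were called (17.2% of all genes at that depth), and differences there may not be detectable.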
